A study of Mus musculus with 33 samples.

Results

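The 10 genes described here are a set of contractile and conduction genes of heart muscle, with the atrial natriuretic peptide gene Nppa among them: Myh6, Myh7, Tnnt2, Tnni3, Actn2, Nppa, Myl2, Myl7, Ryr2 and Pln. They were taken by name out of 22367 protein-coding genes of the GENCODE vM1 annotation of the mouse genome (NCBIM37, known as mm9) from the muscle biology they share and not by a threshold on any measured value, with earlier results of these data known. A gene was said to carry H3K4me3 where a deposited domain lay within 2 kb of its start, and H3K27me3 or H3K9me3 where a domain lay within 5 kb. Binding of Oct4, Sox2 and Nanog was read from peak summits in the gene body or within 20 kb of it, and Uhrf1 from enriched 10 kb windows on the body.

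The cells were mouse embryonic stem cells (mESCs), labelled either wild type (WT) or Uhrf1 knockout (Uhrf1 KO). The study's methods name E14 and Uhrf1 KO cells and do not give the parental line of the knockout. Embryoid bodies (EBs), the 3D aggregates in which mESCs differentiate, were formed from both in hanging drops and taken at EB week1, week2 and week3. Chromatin immunoprecipitation with sequencing (ChIP-seq) was performed for H3K4me3 and H3K27me3 in all 8 of these cell states, and for H3K9me3, Oct4, Sox2 and Nanog in mESCs of both genotypes. Uhrf1 itself was mapped in WT mESCs, so the absence of the protein from the knockout could not be checked in these lists. Each group was 1 library, how many clones the knockout cells stand for was not given in the sources used here, and the values below have no replicate error and no test. Counts of the 10 genes are set beside the percentage of all coding genes that met the same criterion.

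The contractile unit of heart muscle is the sarcomere, in which myosin motors of the thick filament pull on actin filaments that are anchored at the Z-disc, and troponin on the thin filament makes this pull depend on calcium. Calcium is released from the sarcoplasmic reticulum by the ryanodine receptor and pumped back by SERCA2. H3K4me3 marks the starts of active or poised genes, H3K27me3 is deposited by Polycomb complexes on silent developmental genes, and promoters with both marks are called bivalent. Uhrf1 is a chromatin protein known for bringing the maintenance DNA methyltransferase to newly copied DNA.

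In mESCs of either genotype most of these genes had no H3K4me3 at the start. At EB week1 H3K4me3 lay at 6 of the 10 starts in WT (62.1% of coding genes) and at 8 in Uhrf1 KO (57.0%). It covered 7 of the 10 genes to a greater extent in Uhrf1 KO than in WT (13.5%), by the smallest margins at Actn2 and Pln. Coverage was greater in WT for 51.0% of coding genes. At EB week2 coverage was greater in Uhrf1 KO for 4 of the 10 (22.8%) and in WT for 4 (45.4%). The thick and thin filament genes Myh6, Tnnt2 and Myl2 lay in H3K27me3 domains in Uhrf1 KO and not in WT at that stage (9.55% of coding genes), and Actn2 in WT and not in Uhrf1 KO (15.3%). At EB week3 the same 4 genes carried H3K4me3 at the start in WT (66.2%) and Uhrf1 KO (65.8%).

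By the 2 kb distance, the 3 genes richest in CpG at the start were those that carried H3K4me3 in every list. The ratio of observed to expected CpG dinucleotides, over 1001 bases centred on the start, had a median of 0.246 in the 10 genes and 0.549 in all coding genes (quartiles 0.227 and 0.768). Ryr2 had the highest ratio, 0.727, with 80 CpGs. Actn2 came next at 0.515 with 46 CpGs, and Tnni3 had 0.375 with 27. These 3 genes carried H3K4me3 in all 8 lists, as did 50.3% of coding genes. The other 7 genes had ratios from 0.114 (Myh6) to 0.284 (Tnnt2) and carried the mark in 0 to 6 of the 8 lists. Among these 7 the number of lists did not follow the ratio: Nppa had 0.273 and 0 lists, and Myl7 had 0.219 and 6. At 1 kb in place of 2 kb, Actn2 stayed in 8 lists and Tnni3 was in 4. Ryr2 was then missing in Uhrf1 KO at EB week1 and EB week2, where its domain began 1.01 kb inside the gene. With only domains at or above the median mean count of their list, Actn2 was in 4 lists and Tnni3 in 0. Among all coding genes the median ratio was 0.746 for the 11257 with H3K4me3 in all 8 lists, 0.388 for the 5065 with the mark in 1 to 7 lists and 0.166 for the 6045 in which no list had it.

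**Figure D1:**
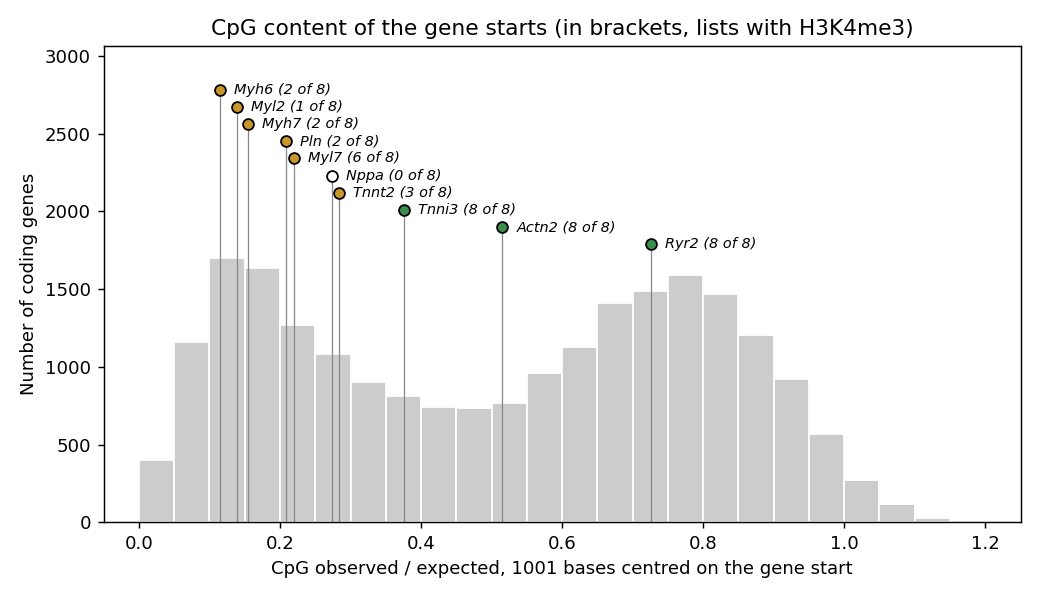
CpG observed over expected at the starts of all coding genes (grey bars, number of genes per bin of 0.05), with the 10 genes as points joined to their value on the x axis by a line; the height of a point has no meaning. Green points carried H3K4me3 in all 8 lists, the white point (Nppa) in 0 lists and yellow points in between. Ryr2, Actn2 and Tnni3 are the 3 points furthest to the right.

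The 250 bases that precede the start are printed for 5 genes that span this range, each in the direction of transcription (NCBIM37) with every CpG in capitals. Ryr2 (chr13:12199213-12199462, minus strand) and Actn2 (chr13:12433028-12433277, minus strand) carried H3K4me3 in every list. Myh6 (chr14:55585765-55586014, minus strand) carried it in 2 lists, Myl2 (chr5:122550710-122550959, plus strand) in 1 and Nppa (chr4:147374581-147374830, plus strand) in 0. The Ryr2 stretch holds 14 CpGs and the Actn2 stretch 9, against 1 in Myh6, 5 in Myl2 and 4 in Nppa. The stretch of Tnni3, which also carried H3K4me3 in every list and is not printed, holds 4, as many as Nppa.
Ryr2: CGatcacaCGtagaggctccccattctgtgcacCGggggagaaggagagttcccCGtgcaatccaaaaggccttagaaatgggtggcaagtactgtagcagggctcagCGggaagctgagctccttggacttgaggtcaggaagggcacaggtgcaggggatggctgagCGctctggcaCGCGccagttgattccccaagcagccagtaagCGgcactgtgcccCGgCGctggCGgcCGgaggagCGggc
Actn2: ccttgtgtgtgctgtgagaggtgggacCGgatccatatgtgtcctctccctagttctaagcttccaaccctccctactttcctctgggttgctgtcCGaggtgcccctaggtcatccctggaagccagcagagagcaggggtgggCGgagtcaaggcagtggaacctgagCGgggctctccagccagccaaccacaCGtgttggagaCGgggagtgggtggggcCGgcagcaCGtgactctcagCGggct
Myh6: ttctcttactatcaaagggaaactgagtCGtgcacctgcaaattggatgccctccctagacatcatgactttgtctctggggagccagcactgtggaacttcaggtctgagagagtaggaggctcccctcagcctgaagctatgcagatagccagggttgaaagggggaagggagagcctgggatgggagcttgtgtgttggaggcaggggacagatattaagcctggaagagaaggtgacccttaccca
Myl2: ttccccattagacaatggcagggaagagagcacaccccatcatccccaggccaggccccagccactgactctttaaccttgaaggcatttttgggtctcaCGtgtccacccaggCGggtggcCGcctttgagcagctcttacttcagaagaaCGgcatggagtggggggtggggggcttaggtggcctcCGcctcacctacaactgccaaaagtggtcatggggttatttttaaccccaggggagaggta
Nppa: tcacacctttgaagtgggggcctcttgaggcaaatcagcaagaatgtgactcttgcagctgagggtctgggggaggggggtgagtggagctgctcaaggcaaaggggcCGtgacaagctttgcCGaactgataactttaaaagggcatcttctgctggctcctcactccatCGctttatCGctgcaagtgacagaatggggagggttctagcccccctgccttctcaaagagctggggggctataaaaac

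Letters of 5 known muscle and promoter elements were searched on both strands of these 250 bases in all 10 genes. The TATA box letters TATAAA were found in Nppa and Pln, and in 12.3% of all promoters. GATA factor letters were searched in the form AGATAA alone, which was found in Pln (9.33% of all promoters). Other forms, such as the TGATAA in the printed Nppa stretch, were not counted. The TEAD factor letters CATTCC were found in Myh7 and Myl7 (11.4%). A CArG box, the element bound by serum response factor, was found in Myl7 (1.34%), and a MEF2 site in Myl2 (2.94%). There were 0 overlaps between matches to different elements in these genes. The matches are descriptions of the letters and not of factor binding.

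**Figure D2:**
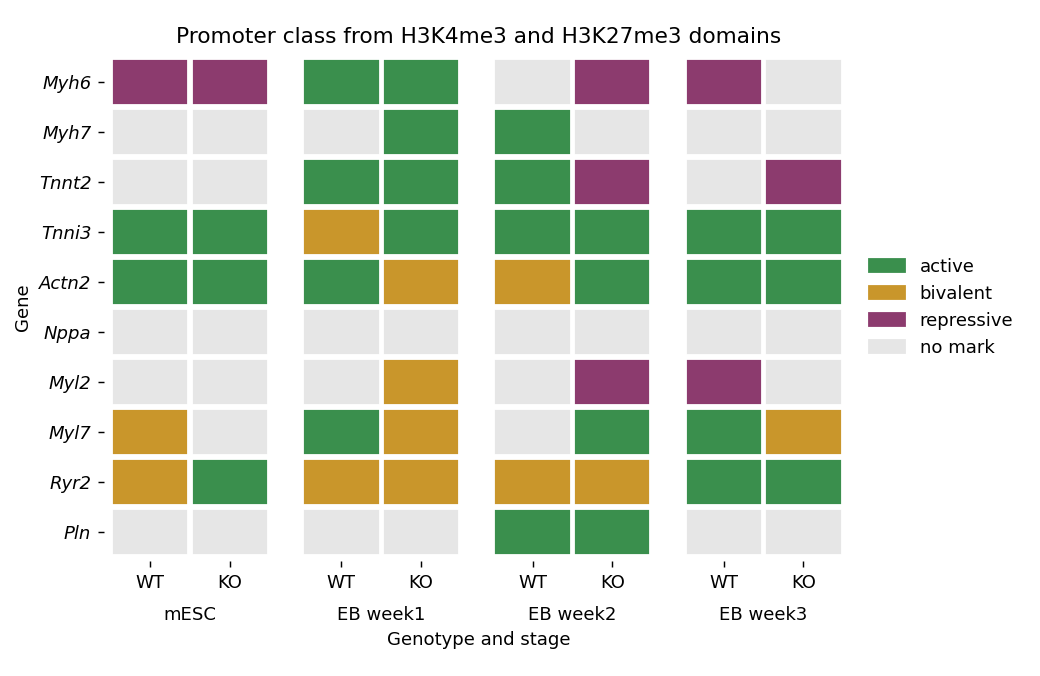
Promoter class of each gene (rows) in WT and Uhrf1 KO (KO) at each stage (columns): active, H3K4me3 alone; bivalent, both marks; repressive, H3K27me3 alone; no mark, neither. Nppa has no mark in any of the 8 cell states, Ryr2 is active or bivalent in all 8, and the column pairs of EB week1 and EB week2 hold the most genes whose class differs between genotypes, 5 and 6.

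Of the thick filament genes, Myh6 (chr14:55560758-55585764, minus strand), the fast alpha myosin heavy chain, and Myh7 (chr14:55589525-55613471, minus strand), the slow beta chain, lie side by side. At EB week1 the H3K4me3 domain at Myh6 was 2.8 kb long in WT, beginning 164 bp inside the gene. In Uhrf1 KO it was 18.55 kb long (chr14:55569851-55588400), which placed it at percentile 99.4 of length among the domains of its own list. The WT domain was at percentile 35.1 of its list. Coverage of the Myh6 body and 2 kb upstream was 10.4% in WT and 66.3% in Uhrf1 KO at that stage. It was 0% in mESCs and at EB week2 in both genotypes and in WT at EB week3, and 1.48% in Uhrf1 KO at EB week3. H3K4me3 at Myh6 was thus listed at the start at EB week1 and at no other stage, in either genotype.

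Myh7 carried H3K4me3 at its start in 2 lists of opposite genotype. At EB week1 it had a 6.3 kb domain in Uhrf1 KO and none in WT, and at EB week2 it had a 1.6 kb domain in WT and none in Uhrf1 KO. Coverage was 24.3% in the former and 6.17% in the latter, and 0% in the remaining 6 lists. The Uhrf1 KO domain at EB week1 was at percentile 83.4 of length in its list, and the WT domain at EB week2 at percentile 33.4.

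Myl2 (chr5:122550960-122563481, plus strand), the ventricular regulatory light chain, carried H3K4me3 at its start only in Uhrf1 KO at EB week1, as a 1.75 kb domain 491 bp inside the gene. Its mean count was low for that list, at percentile 5.99. In the other 7 lists the nearest domain lay 9.04 to 10.6 kb downstream of the start, inside the 12.5 kb gene body, and was 0.8 to 2.6 kb long. That distal domain was present in mESCs and in EBs of both genotypes.

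Myl7 (chr11:5796640-5798785, minus strand), the atrial regulatory light chain, is 2.15 kb long, and a domain at its start often covered all of it. Coverage in WT was 98.5% in mESCs, 100% at EB week1, 0% at EB week2 and 100% at EB week3. In Uhrf1 KO it was 0%, 60.6%, 59.1% and 71.4% at the same stages. By the 2 kb distance the gene therefore had the mark in WT alone in mESCs (9.1 kb) and in Uhrf1 KO alone at EB week2 (2.45 kb). In WT at EB week2 a 0.4 kb domain lay 3.62 kb upstream, and at 5 kb the gene was listed in both genotypes at that stage. By the study's distances its promoter class differed between genotypes at all 4 stages, more than for any other of the 10 genes.

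Of the thin filament and Z-disc genes, Tnnt2 had H3K4me3 at the start in 3 lists, and Actn2 and Tnni3 in all 8. Tnnt2 (chr1:137737452-137748837, plus strand), cardiac troponin T, had no H3K4me3 in mESCs. At EB week1 a 3.2 kb domain ended 1.85 kb upstream of its start in WT, and a 7.7 kb domain covered the start in Uhrf1 KO (percentile 90.7 of length in its list). At EB week2 WT still had a 2.8 kb domain upstream and in Uhrf1 KO the nearest domain, 0.7 kb long, lay 6.1 kb inside the gene. Neither genotype had one at EB week3. Coverage at EB week1 was 1.11% in WT and 31.7% in Uhrf1 KO.

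Actn2 (chr13:12361693-12433027, minus strand), alpha-actinin 2 of the Z-disc, carried H3K4me3 in all 8 lists. Its domain was 10.4 kb in WT and 6.5 kb in Uhrf1 KO in mESCs, 3.2 and 3.85 kb at EB week1, 6.0 and 2.45 kb at EB week2, and 4.4 and 2.0 kb at EB week3. Coverage of this 71.3 kb gene stayed between 2.73% and 11.4%.

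Tnni3 (chr7:4469907-4475831, minus strand), cardiac troponin I, was also in all 8 lists, but its mark was shared with neighbours. In mESCs the WT domain of 32.5 kb ended 1.37 kb upstream of its start and held the starts of 6030429G01Rik and Syt5, and the Uhrf1 KO domain of 49.4 kb covered the start together with those of 6030429G01Rik, Ppp1r12c and Tnnt1. At EB week3 the domains were 12.0 and 21.6 kb and held the start of 6030429G01Rik. At EB week1 and EB week2 the domains nearest to the start, from 2.4 to 7.35 kb long, held no other coding start. Coverage was 7.96% in WT and 100% in Uhrf1 KO in mESCs, 33.2% and 78.6% at EB week1, 40.4% and 64.7% at EB week2, and 38.2% and 100% at EB week3.

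Of the calcium-handling genes, Ryr2 (chr13:11645370-12199212, minus strand), the calcium release channel, carried H3K4me3 at its start in every list with domains of 1.75 to 6.4 kb. WT and Uhrf1 KO domains were 5.2 and 2.6 kb in mESCs, 6.4 and 3.85 kb at EB week1, 5.2 and 1.75 kb at EB week2, and 4.4 and 4.8 kb at EB week3. The Uhrf1 KO domain was thus the shorter of the pair in mESCs and at the first 2 EB stages. All H3K4me3 domains within this 554 kb gene and 2 kb upstream together covered at most 2.59% of it, in WT at EB week2.

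Pln (chr10:53057492-53065805, plus strand) encodes phospholamban, the inhibitor of SERCA2. It carried H3K4me3 at its start at EB week2 and at no other stage. The WT domain was 10 kb and covered 94.1% of the gene and 2 kb upstream, and the Uhrf1 KO domain was 2.45 kb and covered 23.8%. Nppa (chr4:147374831-147376188, plus strand), atrial natriuretic peptide, was never within 2 kb of H3K4me3, whereas 73.0% of coding genes were in at least 1 of the 8 lists. The nearest it came was in Uhrf1 KO, with a 1.4 kb domain 5.93 kb upstream at EB week2 and a 1.2 kb domain 2.83 kb upstream at EB week3. It also had no H3K27me3 in any list.

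**Figure D3:**
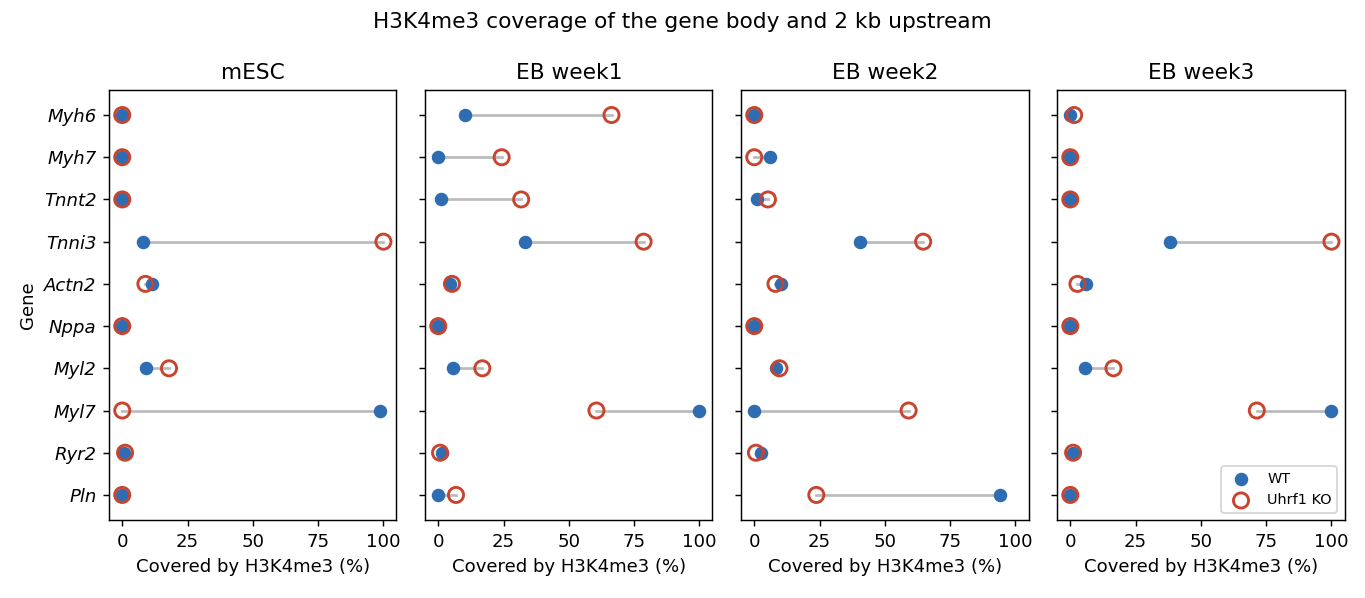
Percentage of each gene's body and 2 kb upstream covered by H3K4me3 domains, in WT (filled blue) and Uhrf1 KO (open red), in a panel per stage; each point is 1 library. At EB week1 the red points of Myh6, Myh7, Tnnt2, Tnni3 and Myl2 lie to the right of the blue points and that of Myl7 to the left; at EB week2 Pln has the widest gap, with WT on the right.

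Counted over the 10 genes, H3K4me3 lay at 4 starts in WT mESCs (63.2% of coding genes) and at 3 in Uhrf1 KO mESCs (57.0%), where Myl7 was missing. At EB week1 the counts were 6 in WT (62.1% of coding genes) and 8 in Uhrf1 KO (57.0%). At EB week2 they were 6 in WT (65.7%) and 5 in Uhrf1 KO (64.5%), and at EB week3 4 in each (66.2% and 65.8%). The WT gain from mESCs to EB week1 consisted of Myh6 and Tnnt2. Uhrf1 KO gained Myh6, Myh7, Tnnt2, Myl2 and Myl7 over the same interval. The share of coding genes that gained the mark over this interval was not counted. At 1 kb in place of 2 kb, Tnnt2 was not listed in WT at EB week1. Bins were 1300 bp in both mESC lists, and 400 bp in WT and 350 bp in Uhrf1 KO at EB week1. The part of this difference in the gains was not tested. When only domains with a mean count at or above the median of their list were kept, 0 starts remained in WT and 4 in Uhrf1 KO at EB week1 (Myh6, Tnnt2, Actn2 and Ryr2).

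The 2 genes listed in Uhrf1 KO alone at EB week1, Myh7 and Myl2, compare with 1.18% of coding genes in that state, and 0 of the 10 were listed in WT alone, against 6.23%. At EB week2 the direction was mixed. Myl7 was listed in Uhrf1 KO alone (2.27% of coding genes), and Myh7 and Tnnt2 in WT alone (3.51%). At EB week3 0 of the 10 were in Uhrf1 KO alone (2.04%) or in WT alone (2.47%). In mESCs 0 were in Uhrf1 KO alone (1.38%), and Myl7 was in WT alone (7.60%).

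Coverage was then compared between the genotypes. At EB week1 H3K4me3 covered more of the gene in Uhrf1 KO than in WT for 7 of the 10 (13.5% of coding genes). These were Myh6, Myh7, Tnnt2, Tnni3, Actn2, Myl2 and Pln. The margin was smallest at Actn2, with 4.36% in WT and 5.25% in Uhrf1 KO. Pln had 0% in WT and 6.79% in Uhrf1 KO, from a 0.7 kb domain 6.01 kb inside the gene. Coverage was greater in WT for 2 (Myl7 and Ryr2), against 51.0%. Median coverage of the 10 was 2.87% in WT and 20.6% in Uhrf1 KO. Over all coding genes the medians ran the other way, 8.44% in WT and 4.86% in Uhrf1 KO. At EB week2 4 of the 10 were more covered in Uhrf1 KO (22.8% of coding genes) and 4 in WT (45.4%), and at EB week3 3 (30.6%) and 3 (30.1%). In mESCs it was 3 (19.0%) and 2 (30.7%).

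Domain length was compared in the same way. Of the 6 genes with a domain at the start in both genotypes at EB week1, the longest domain was longer in Uhrf1 KO for 3 (Myh6, Tnnt2 and Actn2), against 17.1% of the 12491 coding genes with one in both. At EB week2 it was longer in Uhrf1 KO for 0 of 4 genes (32.0% of coding genes). The median over all genes with a domain at that stage was 4.2 kb in WT (6 genes) and 2.45 kb in Uhrf1 KO (5 genes). The lists differ in how they were segmented: bins were 400 bp in WT and 350 bp in Uhrf1 KO at EB week1 and EB week2, and the EB week1 lists covered 107 Mb in WT and 73.4 Mb in Uhrf1 KO. The part of these differences in the result was not tested.

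**Figure D4:**
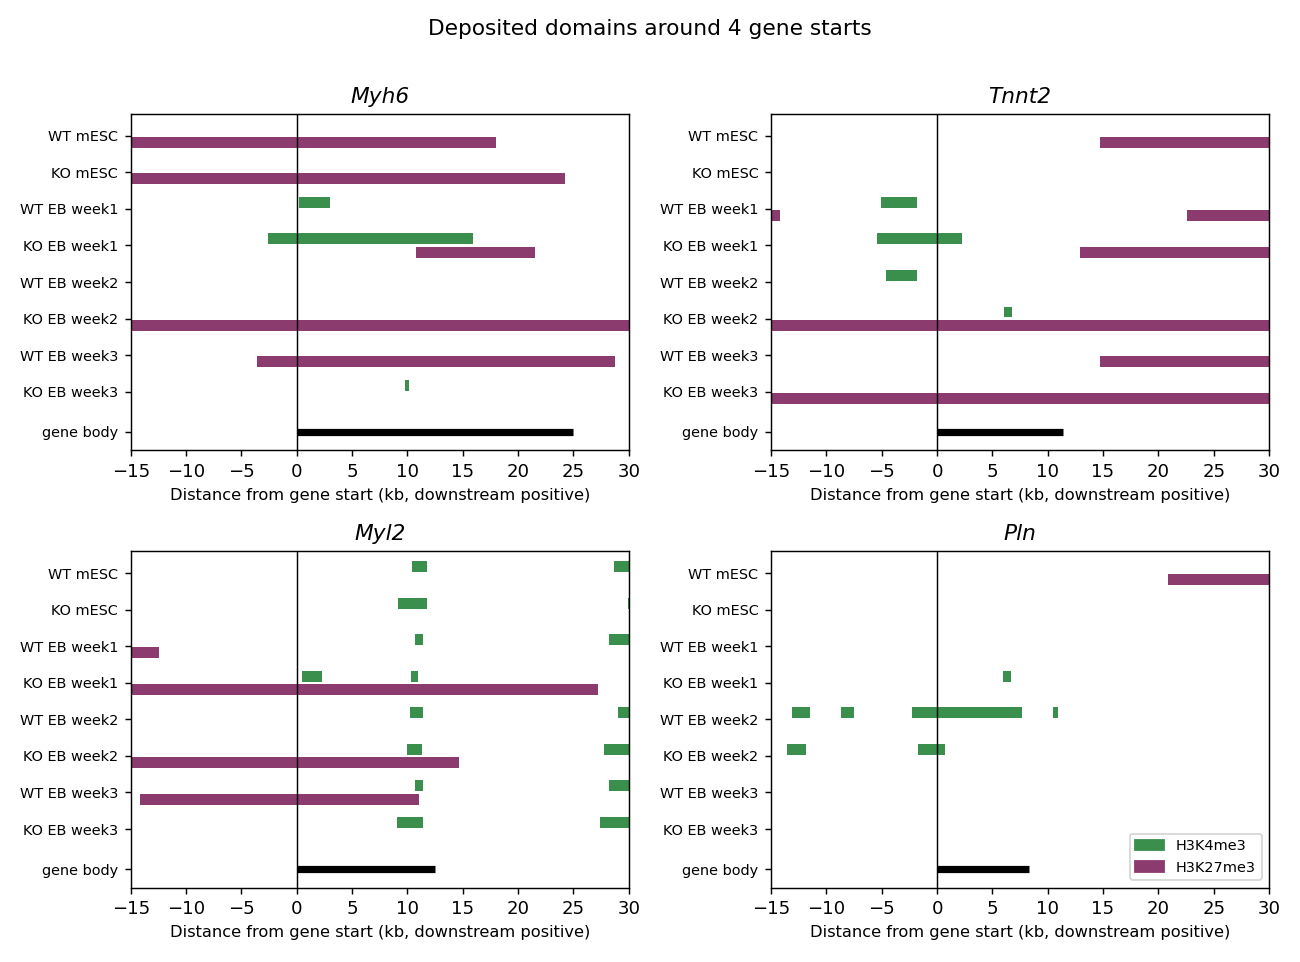
H3K4me3 (green) and H3K27me3 (purple) domains around the starts of Myh6, Tnnt2, Myl2 and Pln, in kb from the start (downstream to the right, gene body as a black bar), 1 row for each library; domains are cut at the panel edges. At EB week1 the Uhrf1 KO domain runs over the Myh6 and Tnnt2 starts, and at EB week2 purple bars span both starts in Uhrf1 KO and neither in WT.

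Other genes of the same pathways were listed beside these 10. Of 18 other sarcomere genes, 11 carried H3K4me3 at EB week1 in WT (62.1% of coding genes) and 15 in Uhrf1 KO (57.0%). The 4 in Uhrf1 KO alone (1.18%) were Ankrd1, Csrp3, Xirp1 and Tcap (Tcap was named after its values were seen), and 0 were in WT alone (6.23%). Coverage was greater in Uhrf1 KO for 12 of the 18 (13.5%) and in WT for 2 (51.0%). Its medians were 2.17% in WT and 21.8% in Uhrf1 KO. At EB week2 the same list had 15 in WT (65.7%) and 10 in Uhrf1 KO (64.5%), with 0 in Uhrf1 KO alone (2.27%) and 5 in WT alone (3.51%). Among these 5 were Mybpc3, cardiac myosin-binding protein C, and Myl3, the ventricular essential light chain. Coverage at that stage was greater in WT for 12 (45.4%) and in Uhrf1 KO for 5 (22.8%).

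Among 25 other calcium and conduction genes the greater coverage at EB week1 was more often in WT, as it was over all coding genes. H3K4me3 lay at 19 of them in WT (62.1% of coding genes) and 18 in Uhrf1 KO (57.0%) at EB week1. Coverage was greater in Uhrf1 KO for 5 (13.5%) and in WT for 15 (51.0%). The same shares apply to the other lists of this paragraph at EB week1. Cacna1g, which encodes a T-type calcium channel, was among those in WT alone at that stage, and Trdn, which encodes triadin of the calcium release complex, was in Uhrf1 KO alone. Among 19 skeletal muscle counterparts (fast and slow skeletal isoforms of the same proteins) the counts were 4 in WT and 3 in Uhrf1 KO, with coverage greater in Uhrf1 KO for 3 and in WT for 5. The 18 cardiac transcription factors had 17 and 16 with the mark, and coverage greater in Uhrf1 KO for 4 and in WT for 10. Of the 5 genes of the natriuretic peptide pathway, 4 in WT and 3 in Uhrf1 KO had it. Nppb, the neighbour of Nppa, carried it in Uhrf1 KO alone at EB week2 and EB week3.

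Marker genes of other cells that an EB can hold were counted in the same lists. At EB week1 62.1% of all coding genes carried H3K4me3 at the start in WT and 57.0% in Uhrf1 KO. Coverage at that stage was greater in Uhrf1 KO for 13.5% of coding genes and in WT for 51.0%. H3K4me3 at EB week1 lay at 6 of 8 pluripotency markers in WT and 3 in Uhrf1 KO, and at 5 of 5 neural markers in WT and 2 in Uhrf1 KO. It lay at 4 of 6 endoderm markers in both genotypes, at 4 of 6 blood and endothelial markers in both, and at 4 and 5 of 6 smooth muscle and fibroblast markers. Coverage was greater in Uhrf1 KO for 0 of 8 pluripotency markers and in WT for 6, and for 0 of 5 neural markers and in WT for 4. Among endoderm markers it was greater in Uhrf1 KO for 1 of 6 and in WT for 4, among blood and endothelial markers for 0 and 6 of 6, and among smooth muscle and fibroblast markers for 3 and 2 of 6. Of 10 housekeeping genes it was greater in Uhrf1 KO for 0 and in WT for 7. In mESCs 7 of 8 pluripotency markers carried H3K4me3 in both genotypes (63.2% of coding genes in WT and 57.0% in Uhrf1 KO). In such bulk samples more cells of a type and more of a mark per cell cannot be told apart, and the part of cell composition in the values above was not tested.

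**Figure D5:**
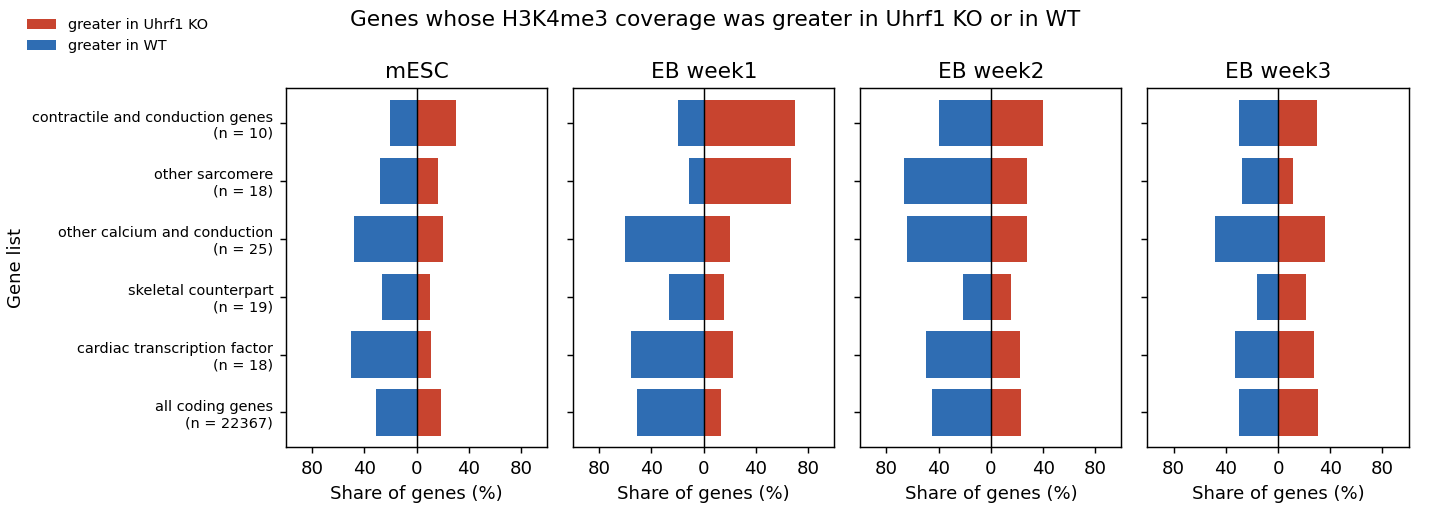
Share of genes in each list whose H3K4me3 coverage of the body and 2 kb upstream was greater in Uhrf1 KO (red, to the right) or in WT (blue, to the left), in a panel per stage; n is the number of genes, and genes with equal coverage are not drawn. At EB week1 red outweighs blue in the 10 contractile and conduction genes (7 against 2) and in the other sarcomere genes (12 against 2), and blue outweighs red in the other 3 lists drawn and over all coding genes.

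H3K27me3 was found at 1 to 4 of the 10 starts in each list, with the highest counts in Uhrf1 KO at EB week1 and EB week2. In WT it lay at Myh6, Myl7 and Ryr2 in mESCs (3 of 10, 34.9% of coding genes), at Tnni3 and Ryr2 at EB week1 (20.5%), at Actn2 and Ryr2 at EB week2 (29.8%) and at Myh6 and Myl2 at EB week3 (33.2%). In Uhrf1 KO it lay at Myh6 in mESCs (7.57%), at Actn2, Myl2, Myl7 and Ryr2 at EB week1 (21.1%), at Myh6, Tnnt2, Myl2 and Ryr2 at EB week2 (24.1%) and at Tnnt2 and Myl7 at EB week3 (19.5%). Myh7, Nppa and Pln had none at the start in any list, like 44.1% of coding genes. The Uhrf1 KO mESC list held 722 domains in all, with a median mean count per bin of 0.914, and the other 7 lists held 3722 to 9488 domains.

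The genes that carried H3K27me3 in Uhrf1 KO alone at EB week2 were Myh6, Tnnt2 and Myl2 (3 of 10, 9.55% of coding genes), and their whole bodies were covered. The domain at Myh6 was 57.6 kb long, that at Myl2 108 kb and that at Tnnt2 203 kb. These were long domains that also held other coding starts: Cmtm5, Gm17428 and Il25 beside Myh6, Cux2 beside Myl2, and Igfn1, Lad1, Pkp1 and Tmem9 beside Tnnt2. Actn2 alone was in the opposite state at EB week2 (15.3%), with a 45 kb domain in WT. H3K27me3 in Uhrf1 KO alone was also found at EB week2 in related genes. These were 5 of 18 other sarcomere genes, 6 of 25 other calcium and conduction genes and 4 of 19 skeletal counterparts. Of 18 cardiac transcription factors it was 2. In WT alone the same lists had 1, 4, 1 and 0 genes, in that order.

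At EB week3 the order was crossed. Tnnt2 and Myl7 carried H3K27me3 in Uhrf1 KO alone (2.88% of coding genes), and Myh6 and Myl2 in WT alone (16.6%). The Tnnt2 domain in Uhrf1 KO was 301 kb long there, and the WT domains at Myh6 and Myl2 were 32.4 and 25.2 kb. At EB week1 Actn2, Myl2 and Myl7 were in Uhrf1 KO alone (6.29%) and Tnni3 in WT alone (5.67%), the last through a 3.5 kb domain 4.17 kb upstream of the start. In mESCs Myl7 and Ryr2 were in WT alone (29.5%) and 0 in Uhrf1 KO alone (2.17%). Ryr2 had H3K27me3 domains of 9 to 27 kb over its start in 5 lists, more than any other of the 10.

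Read together, the marks put 2 of the 10 promoters in the bivalent class in WT mESCs (Myl7 and Ryr2, 18.3% of coding genes) and 0 in Uhrf1 KO mESCs (4.29%). The WT count was 0 when domains below the median score of their list were left out, and when the WT lists were cut to the number of domains in Uhrf1 KO. At EB week1 the bivalent genes were Tnni3 and Ryr2 in WT (15.2%) and Actn2, Myl2, Myl7 and Ryr2 in Uhrf1 KO (10.7%). At EB week2 they were Actn2 and Ryr2 in WT (13.7%) and Ryr2 in Uhrf1 KO (13.4%), and at EB week3 0 in WT (19.6%) and Myl7 in Uhrf1 KO (11.3%). The class differed between genotypes for 2 of the 10 in mESCs (36.4% of coding genes), 5 at EB week1 (18.1%), 6 at EB week2 (29.0%) and 4 at EB week3 (23.0%). Nppa and Pln had the same class in both genotypes at all 4 stages.

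Some genes had states close to those of a member over the 18 histone lists, which include the 2 for H3K9me3. Csrp3, a muscle LIM protein of the Z-disc, matched Myh7 in all 18 lists, and 2 coding genes in all did so. Kcnh2, a cardiac potassium channel, matched Tnni3 in all 18, among 120 coding genes that did. Hcn4, the pacemaker channel, differed from Ryr2 in 2 lists, and Myl3 differed from Myh6 in 3. Nppa was matched by 1454 coding genes, none of which had a domain at the start in any list. The likeness was counted within 4 lists of muscle genes and says only that the listed states were alike.

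H3K9me3 in mESCs was found near 2 of the 10 starts in WT (Actn2 and Myl7, 29.7% of coding genes) and near 2 in Uhrf1 KO (Myl7 and Pln, 40.1%). At Actn2 the WT domain lay 3.17 kb upstream. At Myl7 it was 61.2 kb long in WT and 4023 kb long in Uhrf1 KO, where it held the starts of 80 other coding genes. The Uhrf1 KO domain over Pln was 158 kb long. Pln alone was listed in Uhrf1 KO only (17.9%) and Actn2 in WT only (7.46%).

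A Uhrf1 window lay on 0 of the 10 gene bodies in WT mESCs, against 9.84% of coding genes. The nearest window was 45.4 kb from Ryr2 and 54.2 kb from Tnni3, and for the others the distance ranged from 87.5 kb (Pln) to 1097 kb (Myl2).

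Oct4 summits in WT mESCs were found near 2 of the 10 genes, Tnni3 and Ryr2 (30.1% of coding genes), and near 0 in Uhrf1 KO mESCs (1.10%), whose whole list held 576 summits against 12898 in WT. Sox2 summits were found near 3 genes in WT (Tnni3, Myl7 and Ryr2, 18.8%) and 6 in Uhrf1 KO (with Myh6, Actn2 and Myl2, 57.7%), where the list grew from 5190 to 20755 summits. Nanog summits were found near Tnni3 and Ryr2 in WT (7.51%) and near these with Tnnt2, Actn2 and Myl7 in Uhrf1 KO (27.4%), with 2390 and 10632 summits in the lists. With the longer list of each pair cut to the number of the shorter, WT Oct4 was found near 0 genes, Uhrf1 KO Sox2 near 2 and Uhrf1 KO Nanog near 2. Per 100 kb of gene body and flanks, the 10 genes held 0.358 WT Oct4 summits and all coding genes 0.596.

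The 4 WT Oct4 summits near these genes lay 12.3 kb upstream of the Tnni3 start (chr7:4488140) and at 3 places in introns of Ryr2. The Tnni3 site and the Ryr2 site at chr13:12026731, 172 kb inside the gene, had WT Sox2 and Nanog summits within 100 bp and Sox2 and Nanog summits within 100 bp in Uhrf1 KO too, as did 8.05% of all WT Oct4 summits. The Oct4 summit was 63 reads high at Tnni3 and 65 at this Ryr2 site, percentiles 83.6 and 84.9 of the WT list. Sox2 was 37 reads high at the Tnni3 site in WT and 42 in Uhrf1 KO, and Nanog 24 in each. At the Ryr2 site Sox2 was 23 reads high in WT and 48 in Uhrf1 KO, and Nanog 21 and 27. Heights were deposited as read counts without a library total here, so they are not compared between lists.

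A further Ryr2 site at chr13:12071399 carried an Oct4 summit of 40 reads in WT, with the nearest WT Sox2 and Nanog summits 44675 and 44586 bp away, and had Uhrf1 KO summits of Sox2 at 75 bp (18 reads) and of Nanog at 66 bp (16 reads). Uhrf1 KO summits of both factors lay within 100 bp of 26.4% of WT Oct4 summits. The last site, at chr13:12004654 with 45 reads, had neither factor within 20 kb in either genotype. The Uhrf1 KO Oct4 summit nearest to any of the 4 was 1881831 bp away.

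The 121 bases around the 3 sites that had Sox2 and Nanog summits in Uhrf1 KO are printed from the plus strand (NCBIM37), in order chr7:4488080-4488200, chr13:12026671-12026791 and chr13:12071339-12071459. Capitals mark the Sox-type letters ACAAAG on either strand. These letters were found in 3 of the 4 windows, those printed, and in 16.2% of 12697 such windows around WT Oct4 summits. The window of the last site, chr13:12004654, did not hold them. The Sox-type letters ACAATG (9.06% of windows), the octamer letters ATGCAAA (13.7%) and the longer ATGCAAAT (9.21%) were found in 0 of the 4 windows.
Tnni3 upstream site: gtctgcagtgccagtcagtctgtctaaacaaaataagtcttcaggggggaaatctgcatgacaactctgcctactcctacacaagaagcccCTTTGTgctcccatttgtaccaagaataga
Ryr2 intron site with Sox2 and Nanog in WT: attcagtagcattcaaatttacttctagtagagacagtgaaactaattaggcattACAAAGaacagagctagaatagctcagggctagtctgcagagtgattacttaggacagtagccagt
Ryr2 intron site without them in WT: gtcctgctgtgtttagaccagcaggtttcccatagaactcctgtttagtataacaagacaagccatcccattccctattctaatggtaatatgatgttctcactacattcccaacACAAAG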

How the data were processed

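ChIP-seq was measured in WT and Uhrf1 KO mESCs and EBs, 1 library per group, with 33 samples in all, of which 8 were inputs and 25 had a list. The authors mapped reads to mm9 with Bowtie2 (version 2.1.0), called histone domains with RSEG against input, and deposited a score for each domain beside its signal, the average of the reads in its bins. They called summits with MACS and deposited the height as a score in whole reads. Uhrf1 windows were deposited as positions. No library's read total was used, so depth was not taken into account. Bins ranged from 350 to 1300 bp for H3K4me3, which sets how finely domain edges are placed, so signal and score were ranked within a list only.

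Gene starts were the 5' ends of GENCODE vM1 records (22367 coding genes, with 13 mitochondrial ones left out), and a domain counted with an overlap of 1 bp. Promoter classes used the study's distances but deposited domains in place of reads. Sequences came from the NCBIM37 genome. No position in any list passed a chromosome end of that genome. Scripts ran in Python 3.11 with numpy 2.4.6, and overlap, coverage and distance were tested on simulated data with 0 errors in 10000 draws each. All 10 genes are named. Other genes are named where they shared a domain with one of the 10, were among the 3 most like one, or were among the 4 per list with most lists differing between genotypes. A gene that this rule would name is not reported here. Members and lists were chosen with earlier results of these data known. Of the 6 neural markers listed, Sox1 was not analysed here.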

Additional observations from a re-analysis of the deposited data

Results flagged for a closer look

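Counts of the 10 genes with H3K4me3 at the start, Uhrf1 KO minus WT, changed sign between stages: -1 in mESCs, 2 at EB week1 and -1 at EB week2. The shares of all coding genes with H3K4me3 at the start were 63.2% in WT and 57.0% in Uhrf1 KO mESCs, 62.1% and 57.0% at EB week1, and 65.7% and 64.5% at EB week2. For H3K27me3 the same difference was -2 in mESCs, 2 at EB week1 and 2 at EB week2, where the shares of all coding genes were 34.9% and 7.57%, 20.5% and 21.1%, and 29.8% and 24.1%. These differences between stages were not tested, since each group is 1 library.

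Single genes also took opposite sides at different stages. For H3K4me3 there were 2 such genes by the 2 kb distance. Myh7 was listed in Uhrf1 KO alone at EB week1 and in WT alone at EB week2. Myl7 was listed in WT alone in mESCs and in Uhrf1 KO alone at EB week2, where at 5 kb it was listed in both genotypes. For H3K27me3 there were 4: Myh6, Actn2, Myl2 and Myl7. None of these reversals was tested.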

How the results depend on the processing

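No paired analysis was possible because each group holds 1 library. With 1 library a group, no result has a replicate error, domain edges move by a bin, and read depth behind each list was not examined. The higher H3K4me3 count in Uhrf1 KO than in WT at EB week1 was kept in direction under every alternative run. With the neighbours Myh6 and Myh7 counted as 1 locus, it was 6 in WT and 7 in Uhrf1 KO. Over all counts that answer a comparison, 219 alternative values were within 1.5 times the main count and 70 were not; the cause of each change was not tested beyond what its construction fixes (fewer domains, fewer summits or another distance).

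With domains at or above the median mean count of their list (chosen after seeing the data), H3K4me3 starts fell from 4 to 0 (WT) and 3 to 1 (Uhrf1 KO) in mESCs, 6 to 0 and 8 to 4 at EB week1, 6 to 1 and 5 to 1 at EB week2, and 4 to 0 and 4 to 1 at EB week3. H3K27me3 starts became 0 in Uhrf1 KO mESCs, 1 in WT and 0 in Uhrf1 KO at EB week1, 1 in WT at EB week2 and 1 in each genotype at EB week3. Genes more covered in Uhrf1 KO became 1 in mESCs and 1 at EB week2, and those more covered in WT 1, 0, 2 and 0 over the 4 stages.

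With domains at or above the median score, H3K4me3 starts became 1 in Uhrf1 KO mESCs, 3 in WT at EB week1, 0 in Uhrf1 KO at EB week2 and 2 in Uhrf1 KO at EB week3. H3K27me3 starts became 0 in WT mESCs, 1 in WT and 2 in Uhrf1 KO at EB week1, 0 in WT at EB week2, and 0 in WT and 1 in Uhrf1 KO at EB week3. H3K9me3 in WT became 1. Bivalent promoters became 0 in WT mESCs, 1 in each genotype at EB week1, 0 in each at EB week2 and 0 in Uhrf1 KO at EB week3. Genes more covered by H3K4me3 in Uhrf1 KO became 1 in mESCs and 1 at EB week2.

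With WT and Uhrf1 KO lists of equal number, H3K27me3 starts became 0 in WT mESCs and 0 in WT at EB week3, H3K9me3 in WT 0, bivalent promoters in WT mESCs 0, classes that differ at EB week3 2, WT Oct4 0, Uhrf1 KO Sox2 2 and Uhrf1 KO Nanog 2. At 10 kb, H3K27me3 starts became 5 in WT and 2 in Uhrf1 KO mESCs. Any annotated transcript start gave 2 in Uhrf1 KO mESCs. At the shorter distances, H3K27me3 starts in WT at EB week1 became 1, H3K9me3 in WT 1, bivalent promoters 1 in WT at EB week1 and 0 in Uhrf1 KO at EB week2. Gene bodies alone gave 1 gene more covered in WT at EB week1.

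Summits in gene bodies alone were found at 1 gene for WT Oct4, 3 for Uhrf1 KO Sox2, 1 for WT Nanog and 1 for Uhrf1 KO Nanog. With 5 kb of flank these were 1, 3, 1 and 2, and within 20 kb of the start 1, 2, 1 and 3. With 50 kb of flank, WT Oct4 became 6 and Uhrf1 KO Sox2 10. Summits at or above the median height gave 3 for Uhrf1 KO Nanog.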
